A study of Danio rerio with 6 samples.

Results

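Of 6 genes that mark the early pineal organ, aanat2 was the only gene called different between 3etv mutant and wild-type zebrafish (Danio rerio) embryos, and it was lower in the mutants. The 6 genes, exorh, aanat2, otx5, asmt, gngt1 and gnat1, were found by symbol among the 32057 genes of the deposited count table, and each had a single row. They are pineal photoreceptor and melatonin genes, and the rule that selected them uses symbols, not measured values. The rule and its members were chosen with earlier results of these data known. Single whole embryos at 30 hours post fertilisation (hpf) were profiled by poly-A RNA sequencing, with 3 embryos labelled 3etv mutant and 3 labelled wild type (WT). The series title describes the mutants as Pea3 triple mutants. Pea3 factors are ETS-domain transcription factors that act downstream of fibroblast growth factor signalling. The labels give no allele, no name of the 3 mutated genes, no strain, no parents and no clutch. The embryos are separate animals, so the p-values reflect how single embryos vary, and family was not examined. Both groups share the stage and the tissue, and no treatment is given for either. The time of day and the light at collection are not among the sample values used here, so matching of the groups in these is not known.

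The pineal organ forms at the midline of the dorsal forebrain, in the epithalamus, and in fish its photoreceptors sense light directly. They resemble retinal rods and cones in their signalling: an opsin activates the G protein transducin, which lowers cyclic GMP through a phosphodiesterase. The same cells make melatonin from serotonin in consecutive steps, acetylation by an arylalkylamine N-acetyltransferase and methylation by acetylserotonin O-methyltransferase. In zebrafish the pineal matures before the retina, and its melatonin enzyme genes come under the control of light and the circadian clock.

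The libraries held 17570505 to 19600706 counts in genes in mutants and 21516892 to 25512862 in wild types, so every mutant library was shallower. As a check of the labels, the Pea3 genes etv5b, etv5a and etv4 were called lower in mutants (log2 fold changes of -1.34, -1.01 and -0.48) and etv1 was not called (0.28). The etv4 call was lost without the second mutant embryo (adjusted p = 0.0502, edgeR). Markers of neurons (elavl3), neural crest (sox10), heart (myl7), skeletal muscle (actc1b), blood (gata1a), skin (krt4) and endothelium (cdh5) were present in all 6 embryos. Of these 7 genes actc1b was called, lower in mutants (-0.49, edgeR adjusted p = 0.0145), and its part in the results was not tested. No batch is given in the labels.

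The pineal is a small part of a whole embryo, and its transcripts were sparse. The 6 genes together received 185, 139 and 167 counts in the mutant embryos, against 193, 162 and 157 in the wild-type embryos. Values are given in the order of the numbers in the sample titles, by which embryos are called the first to the third of their group; the numbers are shared by both groups but name different animals. The mean of each gene over the 6 libraries ran from 13.7 counts for aanat2 to 68.3 for exorh. A gene was to be judged too low if it failed edgeR's expression filter or averaged under 10 counts, and none of the 6 did. For aanat2 this rested on the wild types, with 70 counts summed there and 12 in mutants. Every mutant embryo alone was under 10 counts for aanat2, near the floor. The low counts still left wide errors: the standard error (SE) of the log2 fold change ran from 0.281 to 0.557. Among 2360 tested genes averaging 10 to 25 counts, as aanat2, otx5, asmt and gngt1 do, the smallest log2 change called was 0.97 in size.

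**Figure D1:**
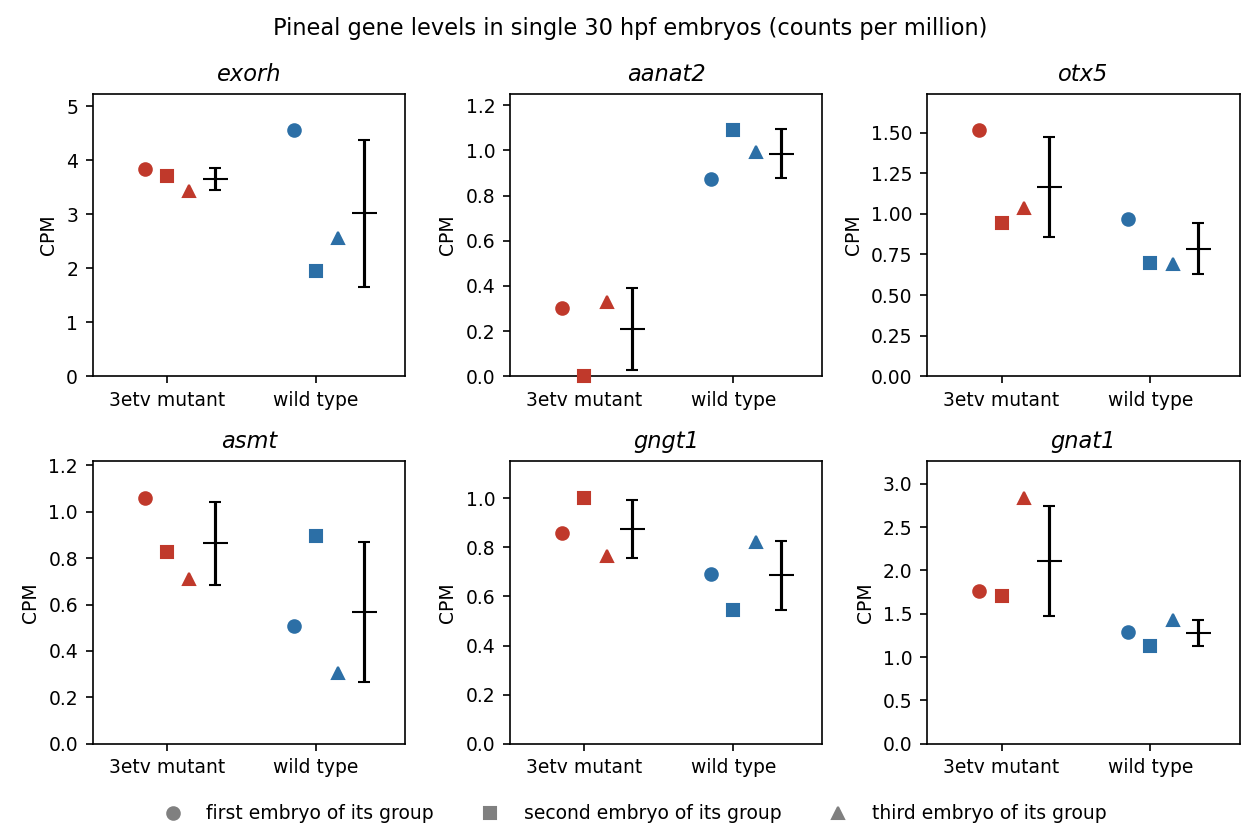
Level of each of the 6 pineal genes in CPM (counts scaled to library size, vertical axis) in every 3etv mutant embryo (red) and wild-type embryo (blue). Marker shapes give the embryos of each group by title number; the black bar is the mean ± SD (n = 3). The mutants lie below every wild type for aanat2 and above every wild type for gnat1, and the groups overlap for the other genes.

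The melatonin enzyme gene aanat2 (ENSDARG00000079802) encodes the acetyltransferase of the zebrafish pineal, which makes N-acetylserotonin. It had 6, 0 and 6 counts in the mutants and 19, 28 and 23 counts in the wild types. No mutant embryo reached the lowest wild type, and in the second mutant embryo the transcript was not detected. The exact 95% Poisson interval of that count reaches 3.69 counts. The preset floor of 3 counts is 0.177 CPM at that depth. Its level was 0.210 ± 0.182 CPM in mutants and 0.986 ± 0.107 CPM in wild types (SD, n = 3 each). The log2 fold change was -2.16 ± 0.557 (SE, edgeR quasi-likelihood test, Benjamini-Hochberg adjusted p = 0.0136), which is 4.47-fold lower in mutants with a 95% interval from 1.94-fold to 10.3-fold. Of 19889 tested genes 26.0% were called, 12.6% higher and 13.5% lower, and among the genes of 10 to 25 counts 17.3% were called, with 8.52% lower. With library totals in place of TMM scaling, 34.2% rather than 48.3% of all calls were higher. A lower log2 fold change than that of aanat2 was seen in 139 tested genes, or 0.699%, and in 105 or 1.55% of the genes averaging 10 to 100 counts. That band is wider than the 10 to 25 counts used for the share called. Among the called genes of 10 to 25 counts, the median size of the log2 fold change was 1.78.

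The aanat2 call did not rest on any single embryo. Without the second mutant embryo, which had no count, the log2 fold change stood at -1.62 (adjusted p in edgeR = 0.0315). With each embryo left out in turn, the adjusted p ran from 0.0224 to 0.0429. In bulk RNA of whole embryos, fewer pineal cells and less of a transcript per cell cannot be told apart.

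The other melatonin enzyme gene of the set, asmt (ENSDARG00000098249), encodes acetylserotonin O-methyltransferase, which carries out the last step. It had 21, 14 and 13 counts in mutants and 11, 23 and 7 counts in wild types. The wild types spread over the whole range of the mutants and beyond it on both sides in counts. Scaled to depth, the groups still overlapped, but the first mutant embryo, at 1.06 CPM, was above every wild type. The wild types ran from 0.303 to 0.894 CPM and the lowest mutant was at 0.709 CPM. The level was 0.865 ± 0.179 CPM in mutants and 0.568 ± 0.301 CPM in wild types, a log2 fold change of 0.59 ± 0.426 (SE, edgeR adjusted p = 0.331). The 95% interval ran from 0.794-fold to 2.85-fold, which holds both no change and a 2-fold rise. The second wild-type embryo moved this value most: without it the log2 fold change stood at 1.09 (adjusted p in edgeR = 0.124).

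Exo-rhodopsin, the rhodopsin-like opsin of pineal photoreceptors, is encoded by exorh (ENSDARG00000111860). It had 76, 63 and 63 counts in mutants and 99, 50 and 59 counts in wild types. The mutants were close together, while the first wild-type embryo was above every mutant and the remaining wild types were below them all. The exact 95% Poisson interval of the count in the first wild-type embryo, from 80.5 to 120.5, did not meet that of the second wild-type embryo, from 37.1 to 65.9, so these wild types differed beyond counting error. The level was 3.66 ± 0.204 CPM in mutants and 3.02 ± 1.37 CPM in wild types, a log2 fold change of 0.29 ± 0.281 (SE, edgeR adjusted p = 0.477, 95% interval from 0.803-fold to 1.86-fold). Without the first wild-type embryo the log2 fold change stood at 0.70 (adjusted p in edgeR = 0.0553), and without the second wild-type embryo it was 0.05 (edgeR adjusted p = 0.922).

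Rod transducin is represented by its alpha subunit gene gnat1 (ENSDARG00000044199) and its gamma subunit gene gngt1 (ENSDARG00000035798). The alpha subunit carries the opsin's signal to the phosphodiesterase. For gnat1 there were 35, 29 and 52 counts in mutants and 28, 29 and 33 counts in wild types. Scaled to depth, every mutant was above every wild type, at 2.10 ± 0.635 CPM in mutants and 1.28 ± 0.150 CPM in wild types. The log2 fold change of 0.72 ± 0.293 (SE) had a 95% interval from 1.06-fold to 2.55-fold before adjustment, but was not called (edgeR adjusted p = 0.0889). Groups without overlap were common in this comparison, at 42.9% of all tested genes. The third mutant embryo was the highest, and without it the log2 fold change stood at 0.45 (adjusted p in edgeR = 0.342).

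The gamma subunit gene gngt1 had 17, 17 and 14 counts in mutants and 15, 14 and 19 counts in wild types. Each group summed to 48 counts, and the CPM ranges overlapped. The level was 0.875 ± 0.120 CPM in mutants and 0.686 ± 0.139 CPM in wild types, a log2 fold change of 0.35 ± 0.349 (SE, edgeR adjusted p = 0.492, 95% interval from 0.755-fold to 2.15-fold).

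The transcription factor gene otx5 (ENSDARG00000043483) encodes an Otx-family homeodomain protein known in zebrafish for activating clock-controlled genes of the pineal. It had 30, 16 and 19 counts in mutants and 21, 18 and 16 counts in wild types. Scaled to depth, the first mutant embryo was highest, and the third, at 1.04 CPM, was also above every wild type. The second, at 0.943 CPM, lay within the wild-type range of 0.692 to 0.967 CPM. The level was 1.16 ± 0.307 CPM in mutants and 0.786 ± 0.156 CPM in wild types, a log2 fold change of 0.58 ± 0.342 (SE, edgeR adjusted p = 0.232, 95% interval from 0.894-fold to 2.49-fold). Without the first mutant embryo it was 0.35 (edgeR adjusted p = 0.557). In the RefSeq table of assembly GRCz12tu otx5 is also the only member whose span overlaps another gene, map4k1. Whether the authors' counting used strand is not stated in the labels or the file.

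In all, 1 of the 6 genes was called, against 26.0% of all tested genes. Groups without overlap were seen in 2 of 6, aanat2 below and gnat1 above, against 42.9% of all tested genes. The 5 genes that were not called had log2 fold changes from 0.29 to 0.72. The median of the 6 was 0.46, against -0.0068 over all tested genes. None of these 5 changes passed the test.

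**Figure D2:**
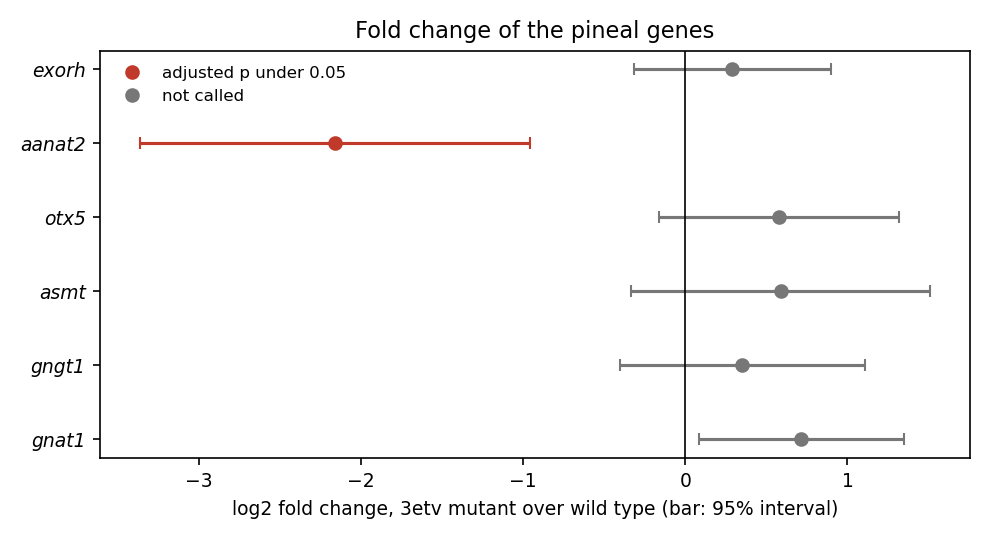
Log2 fold change of each pineal gene, 3etv mutant over wild type (horizontal axis), with the 95% interval of the edgeR fit as the bar. The aanat2 point, at -2.16, is the one called at an adjusted p under 0.05; the other 5 points lie between 0.29 and 0.72.

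Ratios within an embryo do not depend on library scaling, so the other members were also set against exorh in the same embryo. This measure was chosen after the counts had been seen and reuses the aanat2 counts tested above, so it is not independent support. The wild-type ratios also carry the spread of exorh itself, at 99, 50 and 59 counts. The share of all genes without overlap on this measure was not computed. For 100 exorh counts, aanat2 had 7.89, 0 and 9.52 counts in mutants and 19.2, 56.0 and 39.0 counts in wild types. The groups did not overlap, with means of 5.81 ± 5.09 in mutants and 38.1 ± 18.4 in wild types (SD, n = 3 each). An exact two-sided permutation test gave p = 0.1, the smallest that 3 against 3 allows. For otx5, asmt, gngt1 and gnat1 the ratios overlapped between the groups. Their means per 100 exorh counts were 31.7 ± 7.16 in mutants and 28.1 ± 7.44 in wild types for otx5, and 23.5 ± 3.67 in mutants and 23.0 ± 19.9 in wild types for asmt. For gngt1 they were 23.9 ± 2.71 in mutants and 25.1 ± 8.88 in wild types, and for gnat1 58.2 ± 21.1 in mutants and 47.4 ± 16.6 in wild types. The exact permutation p-values of these 4 ratios were 0.6, 1, 0.9 and 0.6, and over the 5 ratios no adjusted p could pass 0.05.

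**Figure D3:**
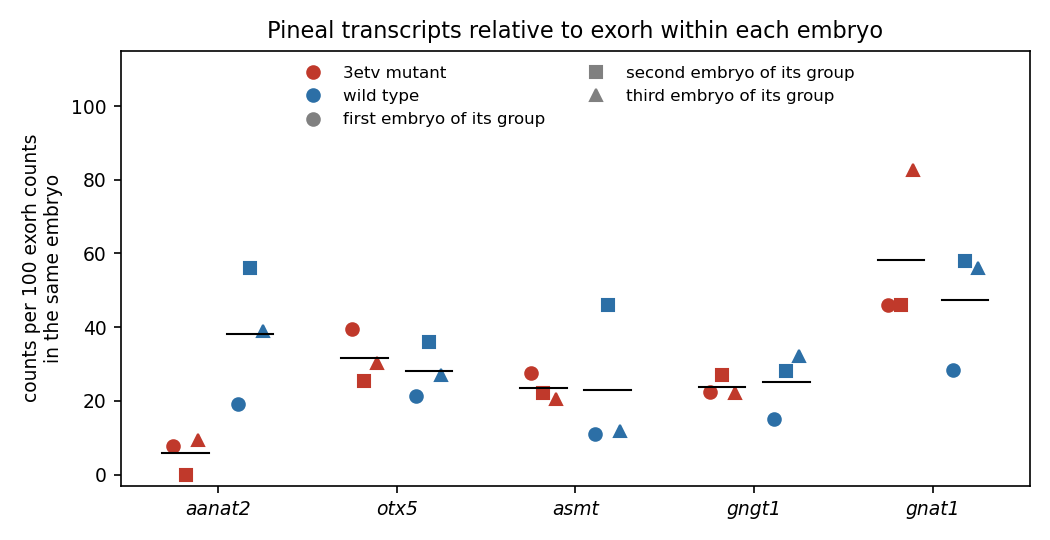
Counts of each pineal gene per 100 exorh counts in the same embryo (vertical axis), for 3etv mutants (red, left of each pair) and wild types (blue); black lines are group means and marker shapes the embryos of each group by title number. For aanat2 the highest mutant, at 9.52, is below the lowest wild type, at 19.2, while the groups overlap for the other genes.

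The profile of exorh over the embryos was high in the first wild-type embryo and even in the mutants. Among 15219 other tested genes averaging at least 50 counts, those with the smallest root mean square distance to it, on log2 CPM centred per gene, were sec22c (0.0847), rgrb (0.0900) and crygmxl2 (0.115), against a median distance of 0.436. The gene rgrb encodes a retinal G protein-coupled receptor and crygmxl2 a gamma crystallin of the lens family. In sec22c, the nearest, there were 71, 53 and 59 counts in mutants and 78, 43 and 52 counts in wild types. In rgrb there were 94, 65 and 79 counts in mutants and 113, 59 and 70 counts in wild types. In crygmxl2 there were 217, 168 and 206 counts in mutants and 253, 133 and 169 counts in wild types. None of these 3 genes was called. As the nearest of 15219 candidates they lie close by selection, and a link to exorh was not tested.

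Genes around the members were counted from 8 lists of 204 symbols, of which 188 were in the table. In all, 140 listed genes were tested, 23 were called higher and 18 lower, a share of 29.3% called that is near the 26.0% over all tested genes (12.6% higher and 13.5% lower). The lists cover transcription factors, melatonin synthesis, opsins, the phototransduction cascade, retinoid handling, the parapineal and habenula, the clock, and the retina. In that order their median log2 fold changes were 0.19, 0.49, -0.27, 0.15, -0.03, 0.23, -0.22 and 0.48, against -0.0068 over all tested genes. The share called varied with abundance, at 17.3% of the tested genes averaging 10 to 25 counts. The lists differ in abundance and were not matched for it.

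Of 15 epithalamic and photoreceptor transcription factor genes, 6 rose and 1 fell in mutants, all 15 being tested, and 8 did not pass. That is 46.7% called, against 26.0% of all tested genes. The called genes named here averaged from 428 to 1573 counts, and no share was taken at matched abundance. Those that rose included otx2a (0.54 on the log2 scale), otx2b (0.35), tbx2b (0.40), rx1 (0.51) and insm1a (0.54), with edgeR adjusted p-values from 0.00337 to 0.0200. The forkhead gene foxd3, used in neural crest and in the epithalamus, fell by 0.69, at 15.2 ± 2.87 CPM in mutants and 24.5 ± 2.01 CPM in wild types (edgeR adjusted p = 0.00324). The genes that rose act in the forebrain and eye or more widely, and otx2b lost its call without the third mutant embryo or the third wild-type embryo (adjusted p = 0.0702 and 0.0880). The most abundant genes not called were tbx2a (0.19) and neurod1 (0.13). Chosen after their values were seen, crx, the Otx-related factor of photoreceptors, had 29, 30 and 31 counts in mutants and 32, 32 and 30 in wild types, and bsx, a pineal homeobox gene, had 16, 23 and 33 counts in mutants and 35, 23 and 43 in wild types. Neither was called (edgeR adjusted p = 0.455 and 0.817).

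In the melatonin list, which holds the remaining synthesis genes, the enzymes of the tetrahydrobiopterin cofactor and the melatonin receptors, 11 of 17 genes were tested and 2 rose (18.2% called, against 26.0% of all tested genes). Both belong to the cofactor. GTP cyclohydrolase gch1, which starts its synthesis, had 190, 137 and 159 counts in mutants and 90, 127 and 110 counts in wild types, a log2 fold change of 0.93 ± 0.158 (SE, edgeR adjusted p = 0.00137). Every mutant was above every wild type. The recycling enzyme gene qdpra rose by 0.56 on the log2 scale (edgeR adjusted p = 0.0196), a call lost without the second mutant embryo (0.0588). The abundant cofactor genes gch2 (-0.20) and pts (-0.09) were not called. The paralogs of the members, chosen after their values were seen, were not called: aanat1 had 13, 10 and 12 counts in mutants and 7, 10 and 6 in wild types (log2 fold change 0.95, edgeR adjusted p = 0.0997), and asmt2 had 75, 64 and 77 counts in mutants and 71, 52 and 54 in wild types (0.63, edgeR adjusted p = 0.0554). The serotonin synthesis genes tph1b (0.27) and tph2 (0.23), chosen after their values were seen, were not called either. Of the receptors, likewise chosen, mtnr1aa, mtnr1al, mtnr1ba, mtnr1bb and mtnr1c failed the expression filter.

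Of 28 opsin rows 10 were tested, and 3 fell and none rose. That is 30% called, near the 26.0% called over all tested genes, of which 13.5% were called lower. They were tmtops2a (-1.10), with 28, 29 and 25 counts in mutants and 70, 85 and 72 in wild types, opn4b (-1.05), a melanopsin gene with 24, 18 and 18 counts in mutants and 44, 56 and 59 in wild types, and opn5 (-0.91), a neuropsin gene with 30, 26 and 21 counts in mutants and 45, 72 and 70 in wild types. These opsins are used outside the rods and cones in fish. Their edgeR adjusted p-values were 0.00423, 0.0132 and 0.0234. The melanopsin genes opn4.1 (0.95) and opn4xb (-1.27), chosen after their values were seen, were not called (edgeR adjusted p = 0.100 and 0.0778). Without the third wild-type embryo tmtops2a alone was called, with opn4b at 0.0554 and opn5 at 0.0887, and opn5 was also lost without the second and the third mutant embryos and the second wild-type embryo (0.0513, 0.0815 and 0.0651). The pineal opsin gene parietopsin had 2 rows, so reads of the copies could be split. The row with more reads had 86, 84 and 68 counts in mutants and 83, 123 and 82 in wild types and was not called (0.09), nor was parapinopsinb (-0.10). The other parietopsin row, chosen after its values were seen, had 5, 1 and 1 counts in mutants and 11, 14 and 6 in wild types. Its groups did not overlap, at 0.122 CPM in mutants and 0.437 CPM in wild types, but it failed the expression filter and was not tested. The retinal rod opsin gene rho had 0, 0 and 2 counts in mutants and 1, 0 and 0 in wild types, at the floor beside its pineal relative exorh; it too was chosen after its values were seen.

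In the phototransduction cascade 29 of 48 genes in the table were tested, and 1 rose and 1 fell (6.90% called, against 26.0% of all tested genes). Many of the tested genes had few counts, and of all tested genes averaging 10 to 25 counts 17.3% were called. The trafficking factor gene unc119.1 rose by 0.44 (edgeR adjusted p = 0.00254). The opsin kinase gene grk7b, with 8, 12 and 12 counts in mutants and 43, 31 and 22 in wild types, fell by 1.22 (edgeR adjusted p = 0.0373). It lost this call without any one of the 3 mutants, and without the first or the second wild-type embryo (adjusted p from 0.0561 to 0.140). The abundant transducin beta genes gnb1b (0.07) and gnb1a (0.06), which are expressed widely, were not called. Cone transducin alpha, gnat2, had 13, 21 and 43 counts in mutants and 31, 38 and 26 in wild types, and its log2 fold change was 0.07 (adjusted p in edgeR = 0.922); it was chosen after its values were seen.

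In retinoid handling 16 of 17 genes were tested, and 2 rose and 3 fell, 31.25% called and near the 26.0% of all tested genes. The interphotoreceptor retinoid-binding protein gene rbp3, known in pineal and retinal photoreceptors, had 4, 4 and 3 counts in mutants and 11, 19 and 23 counts in wild types. As with aanat2, its mutants were near the floor, and it was tested because of its wild types. All mutants were below all wild types, at 0.200 ± 0.0360 CPM in mutants and 0.747 ± 0.244 CPM in wild types, a log2 fold change of -1.88 ± 0.474 (SE, edgeR adjusted p = 0.0123). The call was lost narrowly without the third mutant embryo (0.0505) and without the third wild-type embryo (0.0570). The retinol carrier gene rbp4, a yolk and liver product, fell by 1.52 (edgeR adjusted p = 0.000103), and lrata, which esterifies retinol, fell by 0.56 (0.0211; lost without the second and the third mutant embryos and the third wild-type embryo, from 0.0591 to 0.0777). Those that rose were rlbp1a, a retinaldehyde-binding protein gene with 64, 43 and 33 counts in mutants and 13, 20 and 25 in wild types (1.62, edgeR adjusted p = 0.00371), and rdh8b, a retinol dehydrogenase gene (0.71, edgeR adjusted p = 0.0351). The rdh8b call held without the first wild-type embryo and was lost in the other 5 fits that left out an embryo (adjusted p from 0.0719 to 0.120). The abundant genes rpe65b (0.01) and stra6 (0.04) were not called. With an embryo left out the list had from 2 calls, without the third mutant embryo or the third wild-type embryo, to 6, and 3 without the second mutant embryo.

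The parapineal lies beside the pineal and the habenulae below it. Among 16 genes of these neighbours that had a row, 14 were tested, of which 2 rose and 1 fell (21.4% called, near the 26.0% of all tested genes). The zinc-finger repressor gene gfi1aa had 54, 23 and 35 counts in mutants and 8, 12 and 9 in wild types, a log2 fold change of 2.28 ± 0.368 (SE, edgeR adjusted p = 0.000972). It is known in zebrafish blood, and the tissue in which it rose was not tested. The habenular progenitor gene dbx1b rose by 0.49 (edgeR adjusted p = 0.00535), and the semaphorin receptor gene nrp1a fell by 0.52 (edgeR adjusted p = 0.00286). The parapineal gene gfi1ab, chosen after its values were seen, had 9, 13 and 17 counts in mutants and 15, 24 and 22 in wild types and was not called (-0.27, edgeR adjusted p = 0.628). The abundant genes lhx9 (0.34, edgeR adjusted p = 0.0528) and sox1a (0.21) did not pass either.

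Clock and light-induced genes, which are expressed throughout the embryo, were called in 12 of 31 tested (38.7%, against 26.0% of all tested genes). Of these, 3 were higher and 9 lower in mutants, and their part in the level of aanat2 was not tested. The period gene per1b, a clock repressor, had 160, 182 and 214 counts in mutants and 839, 1069 and 936 in wild types. Every mutant was far below every wild type, and the log2 fold change of -1.99 ± 0.130 passed the test (SE, edgeR adjusted p = 1.27e-06). The clock activator genes clockb (-0.60), npas2 (-1.87) and arntl1b (-0.44) fell. So did the output regulator tefb (3.82 CPM in mutants and 7.67 CPM in wild types), ciarta (-0.60), ciartb (-0.82), nr1d2b (-0.27) and the light-induced per2 (-0.50). The cryptochrome and photolyase family genes cry3a (0.65), cry4 (0.48) and cry5 (0.57) rose. Others of that family, chosen after their values were seen, were not called: cry1a (-0.37), cry1b (-0.18), cry2 (-0.09), cry3b (0.10) and cry-dash (0.20). The abundant bhlhe40 (0.05) and tefa (-0.07) were not called. Of the other activator genes, chosen after their values were seen, clocka (-0.08), arntl1a (0.27) and arntl2 (0.003) were not called. When the second mutant embryo or the second wild-type embryo was left out, 7 genes of the list were called. The calls of per1b, clockb, tefb, ciarta, cry3a and cry5 held whichever embryo was left out. That of nr1d2b was lost in every fit that left out an embryo (adjusted p from 0.0582 to 0.139), and that of npas2 was lost without the second wild-type embryo (0.0521). The call of per2 was lost without the first and the second mutant embryos and the first and the second wild-type embryos (adjusted p from 0.0734 to 0.122). The call of arntl1b was lost without each of the 3 mutants and without the third wild-type embryo (0.0776 to 0.181). The call of cry4 was lost without the second mutant embryo or the second wild-type embryo (0.0544 and 0.0578), and that of ciartb without the second and the third mutant embryos and the second and the third wild-type embryos (0.0530 to 0.0926).

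Opsin and transducin genes are also used by the retina, so its early markers were counted. All 14 were tested, 7 rose and none was called lower, against 12.6% higher and 13.5% lower among all tested genes. Summed over the list, the level ran from 484 to 504 CPM in mutants and from 336 to 383 CPM in wild types. The largest shares came from pax6a, at 160 CPM in mutants and 109 CPM in wild types, and pax6b, at 85.5 and 62.0 CPM. In bulk RNA of whole embryos the tissue of these levels cannot be told, so the sum is not a level of the retina alone. Of the list six3a (0.63), six6b (0.98), pax6a (0.55), pax6b (0.46), isl1 (0.36) and atoh7 (1.86) rose, while mab21l2 (0.25) and six3b (0.29) did not pass. The retinal neuron factor gene atoh7 had 35, 30 and 25 counts in mutants and 20, 4 and 7 in wild types (edgeR adjusted p = 0.0143), and its call was lost without the third wild-type embryo (0.0643). The call of isl1 was lost without the second and the third mutant embryos and the third wild-type embryo (0.0754 to 0.0849). The part of these retinal genes in the levels of gnat1, gngt1, exorh and aanat2 was not tested.

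**Figure D4:**
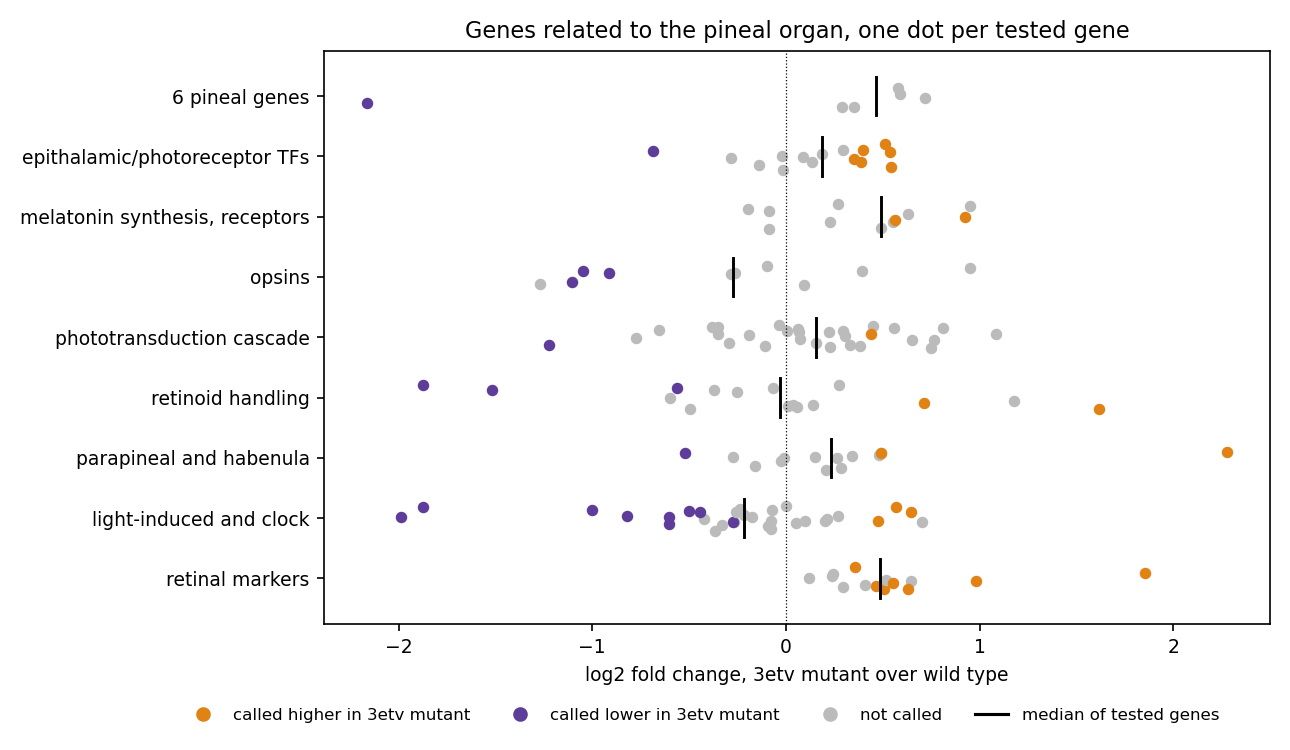
Log2 fold change, 3etv mutant over wild type (horizontal axis), of every tested gene in the 6 pineal genes and the 8 related lists; orange dots were called higher, purple dots lower and grey dots not called, and black lines are medians. Of the pineal genes aanat2 alone lies to the left, the clock list has 9 purple dots and 3 orange ones, and the retinal list has 7 orange dots and no purple one.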

How the data were processed

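The authors deposited unscaled whole-number read counts, 1 row for each Ensembl gene. The submitters' processing notes name STAR, HTSeq and the build GRCz11; versions, gene annotation and strand option are not given in the sources used here. The header has a space in place of a tab, and all 6 columns were matched to sample titles by name. Reads outside genes, from 60.1% to 61.1% of each library, stayed out of totals and tests. Per the labels' protocols, each library came from a single embryo after poly-A selection with a strand-specific kit.

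The quasi-likelihood test of edgeR 4.0.16 (R 4.3.3) compared genotypes after filterByExpr and TMM scaling. Benjamini-Hochberg adjustment covered all 19889 tested genes, with calls at an adjusted p under 0.05. SE is the size of the log2 fold change over the root of F, and 95% intervals use the test's degrees of freedom. CPM uses TMM-scaled totals; log2 CPM for profiles used a prior count of 2. A floor of 3 counts is 0.117 to 0.177 CPM; floors and Poisson intervals cover counting error only. Replicate libraries differed beyond sampling noise, and wild types more so. The chi-square per degree of freedom ran from 6.32 to 9.56 for pairs of mutants and from 20.1 to 49.0 for pairs of wild types.

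The members, lists and rules were chosen with earlier results of these data known. Named are the 6 members, the Pea3 genes, each called listed gene (a few are not reported here), the 2 most abundant uncalled genes per list, the 3 profiles nearest to exorh, and genes said to be chosen after their values were seen. Alternatives used DESeq2 1.42.0, limma 3.58.1, other scalings and filters, the replicate number as a block, and leaving out each embryo; thinning to equal depth was added after the data were seen. In a simulated data set, changes of 2 on the log2 scale, up or down, were given to genes averaging 10 to 100 counts. The main test, the DESeq2 test and limma-voom each recovered most of them, with a share of false calls above the nominal rate. Smaller changes, such as those of the uncalled members, were not simulated, so their recovery is not known. All members matched RefSeq's GRCz12tu table by symbol; since builds differ, no coordinates are given.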

Additional observations from a re-analysis of the deposited data

How the results depend on the processing

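Across 15 alternatives each, all 6 pineal genes held both sign and call: log2 fold changes ran from -2.73 (limma-voom) to -1.62 (without the second mutant embryo) for aanat2, with adjusted p-values from 0.00557 to 0.0429, from 0.05 to 0.70 for exorh, from 0.35 to 0.74 for otx5, from 0.29 to 1.09 for asmt, from 0.20 to 0.50 for gngt1 and from 0.45 to 0.85 for gnat1. Over all genes, 2502 were called higher and 2676 lower; with each embryo left out in turn these ran from 1643 to 2266 and from 1787 to 2572, with 1643 reached without the third wild-type embryo. With library totals in place of TMM, the share of calls that were higher was 34.2% in place of 48.3%, and the median of all genes was -0.0823. The phototransduction list had 1 call in place of 2 with the DESeq2 Wald test, limma-voom and the replicate block, from 1 to 2 when an embryo was left out, and 3 with libraries thinned to equal depth. When an embryo was left out, the counts of calls ran from 1 to 3 for melatonin and 1 to 4 for opsins. They ran from 2 to 6 for retinoid handling and 7 to 10 for the clock. The cause was not tested. The numbers in the titles gave no sign of pairing (correlations of deviations of -0.0694, 0.0856 and -0.111); with the replicate block aanat2 was at -2.21 (adjusted p = 0.0247), 4723 genes were called, and per2, nr1d2b, arntl1b, rdh8b and grk7b lost their calls. For the other 45 genes tried singly, 608 of 674 alternative values kept direction and call and 66, from 18 genes, lost the call. Depth limits aanat2, otx5, asmt and gngt1, which average 10 to 25 counts; the intervals of otx5, asmt and gngt1 reach from 0.755-fold to 2.85-fold, and aanat2 has the largest SE of the 6, at 0.557. Of the listed symbols, 16 had no row under that name and were not analysed here.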
